A study of Homo sapiens with 16 samples.

Results

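HEK-293T is an established human embryonic kidney line that carries the SV40 large T antigen. The 2 full-length cDNA (IsoSeq) pools of this line, out of 16 samples in the series, are compared here: pooled replicates given a negative control siRNA (siNegative) against pooled replicates given an siRNA against HNRNPH1 (siHNRNPH1). Per the labels, both pools came from HEK-293T cells transfected with 20 nM siRNA, with RNA taken 48 h later. HT-1080, a fibrosarcoma line, has the same pair of pools, and each line has 3 short-read libraries per siRNA; both are used only beside the HEK-293T pools. Each pool is 1 sample, so the comparison of pools has no replicate check and no test. An IsoSeq model is a distinct transcript structure given by its exon positions. Each model counts once, whatever its abundance, because the deposited files hold no read counts.

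HNRNPH1 is a nuclear RNA-binding protein that contacts runs of G. It is known as a regulator of alternative splicing that can favour or repress an exon depending on where it binds. A full-length model shows the first exon, the spliced introns and the last exon on 1 molecule. It therefore shows which choices of splice site and end go together, which short reads have to infer.

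The siNegative pool held 64705 models and the siHNRNPH1 pool 94847, a ratio of 1.47. They formed 10695 loci, where a locus is a set of models joined by shared exonic bases on 1 strand. Of these loci, 8764 had models in both pools and held 99.0% of the siNegative models and 97.7% of the siHNRNPH1 models. Another 498 loci were found with siNegative only and 1433 with siHNRNPH1 only, with a median of 1 model each on both sides. Of the HEK-293T markers LIN28B, PAX2, NEFM, CKB, SALL4 and IGF2BP1, 4 of 6 had models in both pools, with 26 and 38 models in all, and PAX2 and SALL4 had none. Of the HT-1080 markers, CAV1 had 1 and 2 models, while PLAU, THBS1, TGFBI and COL5A1 were at 0.

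The targeted gene was examined first. HNRNPH1 had 36 models with siNegative and 14 with siHNRNPH1, a ratio of 0.389. Only USP37 and GOLGA8B had lower ratios among 2597 loci with at least 20 models in both pools together. In HT-1080 the same locus had 15 and 2 models. The short-read level of HNRNPH1 was 1107, 1105 and 1121 counts per 1 M counts of the library (CPM) with siNegative and 234.1, 376.2 and 394.3 CPM with siHNRNPH1, with no overlap. Fewer transcripts per cell and fewer cells that express the gene cannot be told apart in bulk RNA.

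Splice choices were compared next. The share of an intron, exon or retained intron is the number of models that carry it, divided by the models of the locus whose span covers it. A feature was called shifted where at least 20 models covered it in each pool, the shares differed by at least 25 percentage points and the exact Clopper-Pearson 95% intervals did not overlap. These intervals treat models as independent draws, although several models can have the same set of introns. They do not cover the spread between pools, and models of a pool are not replicates of a condition. Shares were not compared at equal model numbers, so the part of the larger siHNRNPH1 pool in these differences was not tested. Of 14169 introns tested at 615 loci, 13 (0.0917%) were shifted to a higher share with siHNRNPH1 and 8 (0.0565%) to a lower share, at 14 loci. Of 11525 internal exons, 4 (0.0347%) had a higher share and 8 (0.0694%) a lower share. Of 2242 retained introns, 0 (0%) had a higher share and 1 (0.0446%) a lower share. First exons shifted at 2 of 657 loci (0.304%) and last exons at 2 of 657 (0.304%). Most introns tested differed little: 92.8% differed by less than 10 points and the median absolute difference was 2.38 points. Of the 14169 introns, 3224 were at 100% in both pools. The shifted features belonged to 19 loci, described here by what the genes do, apart from XIST, a long noncoding RNA locus with a shifted exon and last exon. The smallest shifted difference of an intron was 25.9 points, at ZDHHC6. Just outside, an APLP2 intron differed by -24.7 points with intervals apart, and the 191-nt EXOSC10 exon differed by -27.8 points with intervals that overlapped.

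**Figure D1:**
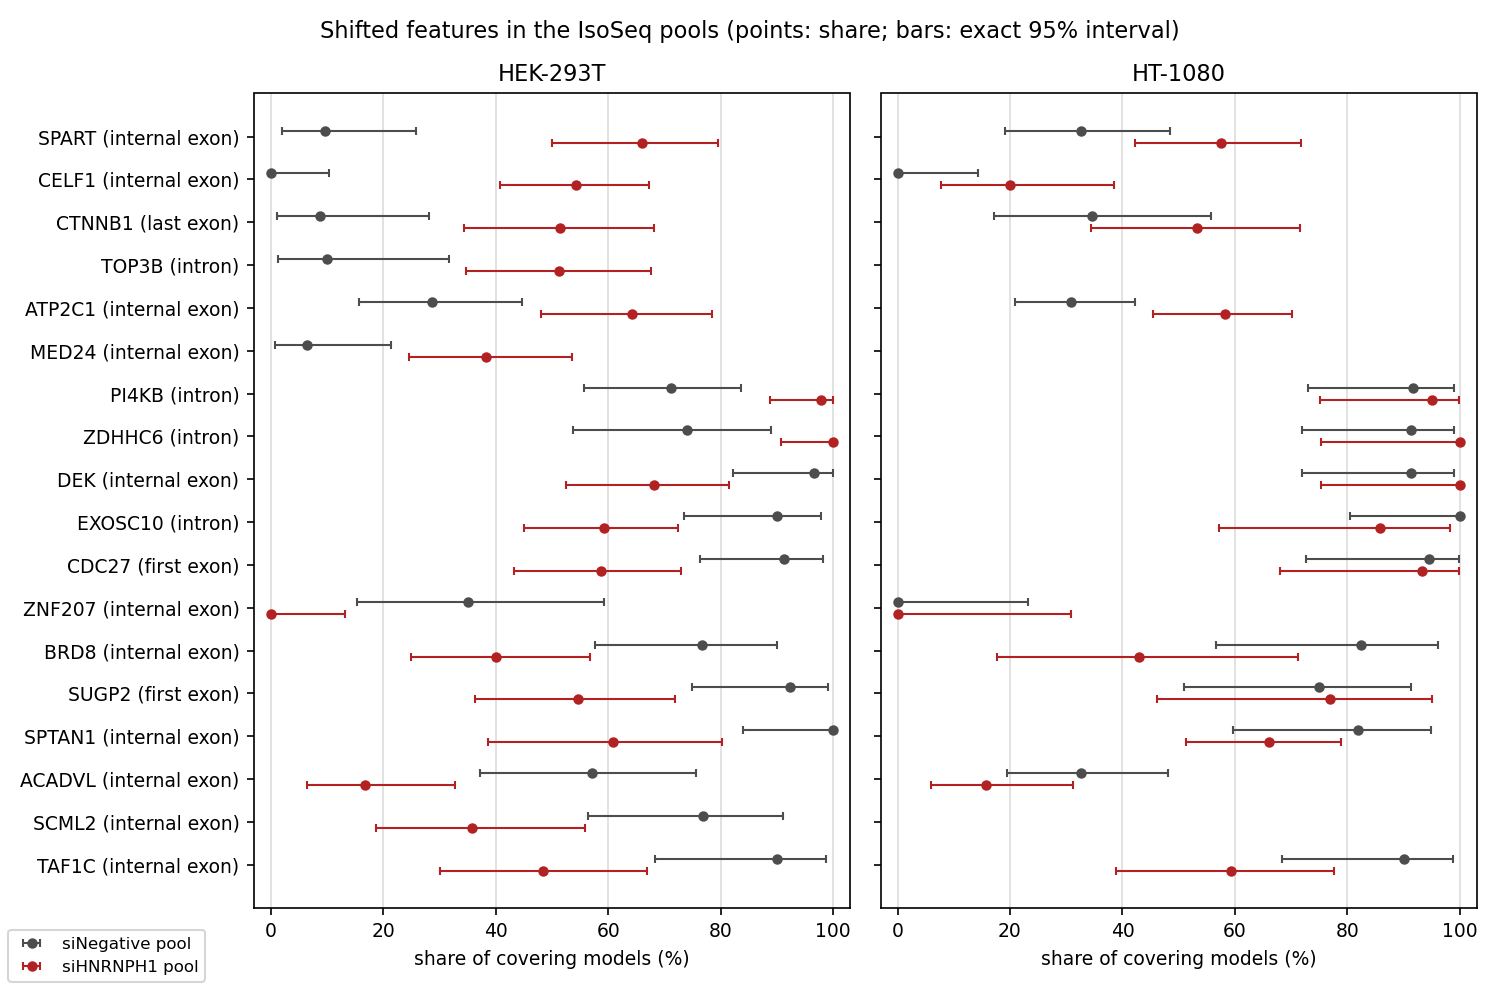
Share of covering models (%, x axis) that carry 1 shifted feature per gene (y axis) in the siNegative and siHNRNPH1 pools of HEK-293T (left) and HT-1080 (right). Points are shares and bars exact 95% intervals; HT-1080 is drawn where at least 10 models covered the feature in each pool, and in HEK-293T the bars of each pair are apart by construction.

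Among genes of RNA binding and RNA decay, CELF1 had an exon that no control model carried. CELF1 encodes an RNA-binding protein that acts in splicing and mRNA decay. Its 110-nt exon (chr11:47495943-47496052, minus strand, GRCh38) was in 0 of 34 siNegative models (0%, interval 0 to 10.3%) and in 32 of 59 siHNRNPH1 models (54.2%, interval 40.8 to 67.3%). The introns on both sides of it were likewise absent with siNegative and stood at 49.2% and 45.8% with siHNRNPH1. In HT-1080 the exon was in 0 of 24 and 6 of 30 models, so control models of both lines lacked it. EXOSC10, a nuclease of the nuclear RNA exosome, had the intron chr1:11081239-11082687 in 27 of 30 siNegative models (90%) and 32 of 54 siHNRNPH1 models (59.3%). The longer intron that skips its 191-nt exon was in 1 of 30 and 14 of 54 models. SUGP2, a protein with domains found in splicing factors, used the first exon that ends at base 19033437 of chromosome 19 in 24 of 26 models (92.3%) with siNegative and 18 of 33 (54.5%) with siHNRNPH1. The other SUGP2 models of the siHNRNPH1 pool had a first exon with another donor. A first exon with its donor at base 19024619 was used by 1 of 26 and 5 of 33 models.

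Genes of transcription, chromatin and the spindle are described next. BRD8, a bromodomain protein of the TIP60 acetyltransferase complex, carried its 219-nt exon (chr5:138168470-138168688, minus strand) in 23 of 30 models (76.7%, interval 57.7 to 90.1%) with siNegative and 16 of 40 (40%, interval 24.9 to 56.7%) with siHNRNPH1. The intron that skips this exon was in 7 of 30 and 23 of 40 models. SCML2, a Polycomb group protein, had a 152-nt exon (chrX:18242439-18242590, minus strand) in 20 of 26 models (76.9%) and 10 of 28 (35.7%). Its exon-skipping intron had the opposite difference, 6 of 26 and 18 of 28 models. TAF1C belongs to the selectivity factor of RNA polymerase I. Its 210-nt exon (chr16:84184851-84185060, minus strand) was in 18 of 20 models (90%) and 15 of 31 (48.4%). In its place, siHNRNPH1 models had a 139-nt form with another acceptor in 8 of 31 models or no exon there in 6 of 30, against 2 of 20 and 0 of 20 with siNegative.

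In MED24, a Mediator subunit, alternative acceptors gave an 81-nt or a 210-nt exon with the same donor. The 210-nt form (chr17:40020273-40020482) was in 2 of 31 models (6.45%) with siNegative and 18 of 47 (38.3%) with siHNRNPH1, and the 81-nt form in 27 of 31 and 28 of 47. DEK, a chromatin protein, had its 69-nt exon (chr6:18226174-18226242) bounded by splice sites in 28 of 29 models (96.6%) and 30 of 44 (68.2%). In 1 of 30 and 13 of 44 DEK models the next 443-nt intron was retained instead. Alongside this, the last exon had its acceptor at base 18226242 in 1 of 31 and 13 of 46 models. ZNF207, a zinc finger protein of spindle assembly, had a 184-nt internal exon (chr17:32369599-32369782) in 7 of 20 models (35.0%) and 0 of 26 (0%, interval 0 to 13.2%). ZNF207 models that ended downstream, at the last exon with its acceptor at base 32377915, numbered 7 of 21 and 2 of 27.

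Genes of adhesion, the cytoskeleton and signalling included a last exon of beta-catenin with alternative acceptors. CTNNB1 encodes beta-catenin, an adhesion protein and Wnt effector. Its last exon began at base 41239660 of chromosome 3 (plus strand) in 2 of 23 models (8.70%, interval 1.07 to 28%) with siNegative and 19 of 37 (51.4%, interval 34.4 to 68.1%) with siHNRNPH1. The acceptor further on, at base 41239819, was used by 11 of 23 and 10 of 37 models. In another 8 of 23 and 7 of 37 models the last exon had its acceptor at base 41239134. The 305-nt last intron was spliced in 2 of 21 and 17 of 36 models, and retained in 8 of 21 and 7 of 36. SPTAN1 encodes alpha-II spectrin of the membrane skeleton. Its 18-nt exon (chr9:128627925-128627942) was in 21 of 21 models (100%, interval 83.9 to 100%) with siNegative and 14 of 23 (60.9%) with siHNRNPH1, and 0 of 21 and 9 of 23 models skipped it. PI4KB, a Golgi lipid kinase, spliced the intron chr1:151293034-151294017 in 32 of 45 models (71.1%) and 46 of 47 (97.9%). It was retained in 5 of 45 and 0 of 47 models.

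Genes of organelles and metabolism follow. SPART, or spartin, acts in lipid droplet turnover and is mutated in a hereditary spastic paraplegia. Its 72-nt exon (chr13:36336287-36336358, minus strand) was in 3 of 31 models (9.68%, interval 2.04 to 25.8%) with siNegative and 29 of 44 (65.9%, interval 50.1 to 79.5%) with siHNRNPH1. ATP2C1, a Golgi pump for calcium and manganese, had a 186-nt exon (chr3:130894590-130894775) in 12 of 42 models (28.6%) and 27 of 42 (64.3%). The ATP2C1 intron that skips it was in 21 of 41 and 7 of 36 models. ACADVL, a mitochondrial enzyme of fatty acid oxidation, spliced a 364-nt intron (chr17:7222303-7222666) in 12 of 28 models (42.9%) and 29 of 36 (80.6%), and retained it in 16 of 28 and 7 of 36. At other ACADVL introns retention had the opposite difference, with intervals that overlapped: 7 of 28 and 21 of 36 models retained the 75-nt intron chr17:7220047-7220121, and 13 of 28 and 27 of 36 the 74-nt intron chr17:7220530-7220603. ZDHHC6, a palmitoyltransferase of the endoplasmic reticulum, had the intron chr10:112440696-112442191 in 20 of 27 models (74.1%) and 38 of 38 (100%). ZDHHC6 and PI4KB stood outside the rule for named genes and were added after their values were seen.

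The last pair were a topoisomerase and a cell cycle gene. TOP3B, a topoisomerase that acts on DNA and RNA, had the intron chr22:21975808-21982413 in 2 of 20 models (10.0%) with siNegative and 20 of 39 (51.3%) with siHNRNPH1, while the intron to base 21982729 was in 13 of 20 and 15 of 39. A 36-nt TOP3B exon next to that intron was in 0 of 20 and 10 of 39 models. CDC27, a subunit of the anaphase-promoting complex, used the first exon that ends at base 47189146 of chromosome 17 in 31 of 34 models (91.2%) and 27 of 46 (58.7%). Of the 12 shifted internal exons, 7 (58.3%) had a length that is a multiple of 3, against 39.3% of the 11525 exons tested. Among the 2292 tested exons with a share between 10 and 90% in a pool it was 41.6%. The difference was not tested. Whether the shifted exons are coding or untranslated was not analysed here.

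The HT-1080 pools have their own control and were not used to choose the features. With at least 10 covering models in each HT-1080 pool, 17 of the 21 shifted introns could be compared, at 12 loci. Of these, 16 (94.1%) differed in the HEK-293T direction, with a median of 15.8 points. Among introns that differed by 10 points or more in HEK-293T without being shifted, 392 of 692 (56.6%) had the same direction in HT-1080, with a median of 2.32 points. Of the rest, 194 had the opposite direction and 106 did not differ in HT-1080, while among the 17 shifted introns 1 was opposite and 0 did not differ. Introns that flank 1 exon are not independent, so genes were counted too: of 15 genes with such coverage, 12 had all their shifted features in the same direction. The exceptions were DEK, SUGP2 and ZNF207. Genes without a shifted feature were not counted in this way. In HT-1080 the BRD8 exon was in 14 of 17 and 6 of 14 models, and the 210-nt TAF1C exon in 18 of 20 and 16 of 27. At SPART the HT-1080 control already stood at 14 of 43 models, and its siHNRNPH1 pool at 27 of 47. At ATP2C1 the exon was in 24 of 78 and 39 of 67 models, close to the HEK-293T shares in both pools. For CDC27 the first exon shares were 94.4% and 93.3% in HT-1080, a difference of -1.11 points.

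**Figure D2:**
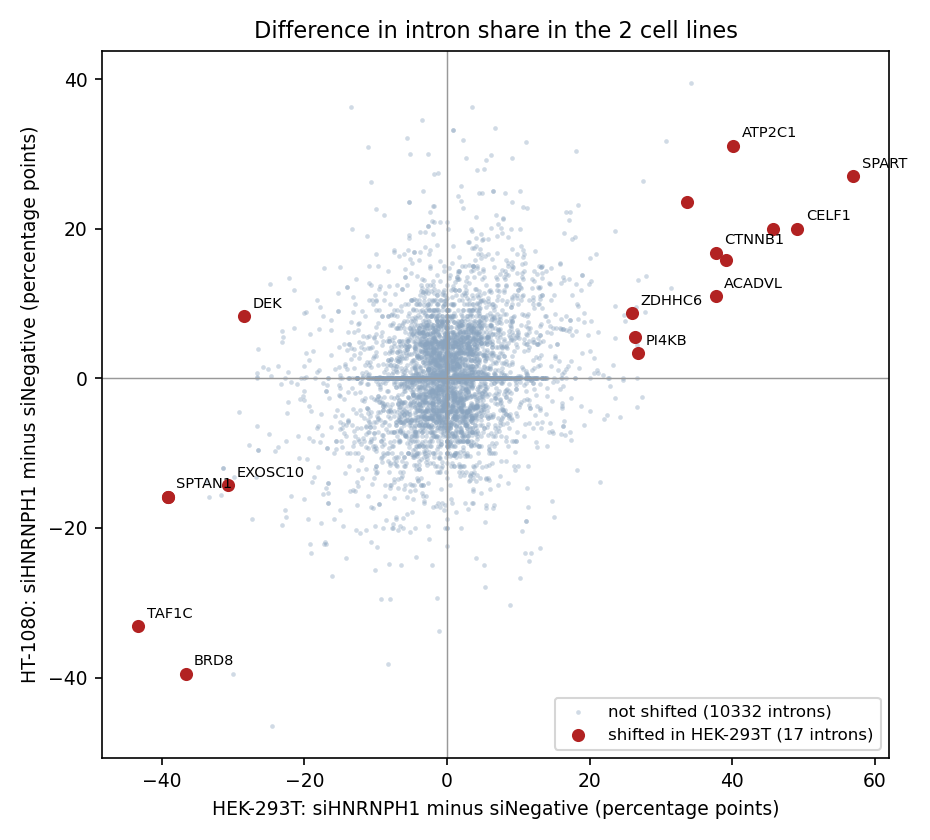
Difference in intron share, siHNRNPH1 minus siNegative, in percentage points, in HEK-293T (x axis) and HT-1080 (y axis), for introns covered by at least 20 models per HEK-293T pool and 10 per HT-1080 pool. Red points are the 17 shifted introns, of which 16 lie in the quadrants of equal sign; DEK is the exception.

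Short reads of the HEK-293T libraries gave a separate readout of transcript choice. A gene was called shifted there when the mean share of 1 of its transcripts in the gene's expected counts differed by at least 10 points and the 3 siHNRNPH1 libraries did not overlap the 3 siNegative libraries. With 3 against 3, an exact permutation test cannot go below p = 0.1. Of 13153 genes tested, 2825 (21.5%) met this rule, and of the 19 genes shifted in IsoSeq, 11 (57.9%) did. Among the 603 genes with an intron tested in IsoSeq the share was 25.2%. Replicate 1 of siHNRNPH1 stood apart from replicates 2 and 3, and without it 6 of the 19 genes (31.6%) met the rule, against 14.8% of the 603 and 20.7% of all genes. These 6 were CTNNB1, BRD8, ATP2C1, SPTAN1, MED24 and TOP3B.

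At CTNNB1, the transcript ENST00000396185.8 held 11.3%, 12.1% and 11.3% of the gene with siNegative and 60.6%, 53.6% and 53.1% with siHNRNPH1. All siHNRNPH1 libraries were high, a mean difference of 44.2 points. At BRD8, ENST00000230901.9 held 42.5%, 45.2% and 42.6% with siNegative and 3.68%, 9.03% and 9.34% with siHNRNPH1. No library overlapped, and the means were 43.4% ± 1.51 and 7.35% ± 3.18 (SD, n = 3 each). At ATP2C1, ENST00000428331.6 held 19.3%, 17.6% and 20.7% with siNegative and 36.5%, 42.1% and 45.7% with siHNRNPH1. At SPTAN1, ENST00000358161.9 held 68.3%, 70.6% and 68.4% with siNegative and 53.9%, 49.9% and 52.2% with siHNRNPH1. The differences of means were 22.2 points at ATP2C1 and -17.1 points at SPTAN1, larger than the spread within groups. MED24 and TOP3B differed by less: ENST00000394128.7 of MED24 by -12.2 points and ENST00000357179.10 of TOP3B by -11.8 points. Which of these transcripts carry the IsoSeq features was not analysed here.

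**Figure D3:**
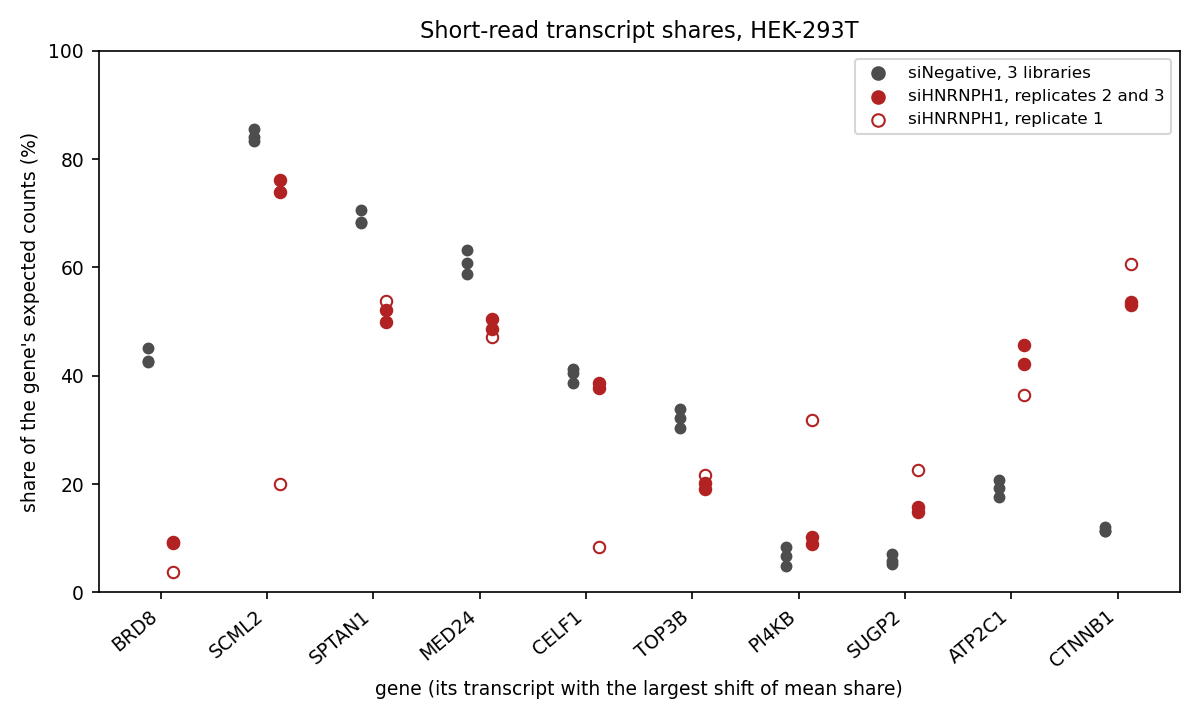
Share of the gene's expected counts (%, y axis) held by 1 transcript in each HEK-293T short-read library, for 10 of the 11 genes shifted in IsoSeq and in short reads (x axis); XIST is not drawn. Grey points are the 3 siNegative libraries, red points siHNRNPH1 replicates 2 and 3, and open points replicate 1, which lies far from the other 2 at SCML2, CELF1 and PI4KB.

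The other shifted genes depended on replicate 1 or did not meet the rule. At SCML2, ENST00000251900.9 held 83.3%, 85.5% and 84.1% with siNegative and 20.0%, 73.9% and 76.1% with siHNRNPH1, so replicate 1 gave most of the difference. CELF1 met the rule through ENST00000687097.1, at 38.7%, 40.4% and 41.2% against 8.39%, 37.7% and 38.7%. SPART did not meet the rule in short reads. For gene level, edgeR's quasi-likelihood test called 10% of 19966 genes (5.12% higher, 4.88% lower), and of the 19 shifted genes it called BRD8 alone. These numbers rest on the libraries used: without siHNRNPH1 replicate 1 edgeR called 12557 genes, and 17 of the 19 (7 higher, 10 lower), while without siNegative replicate 2 or 3 it called 0 genes, with 3517 and 3486 at an unadjusted p under 0.05. BRD8 stood at 128.3, 128.1 and 131.2 CPM with siNegative and 62.7, 71.3 and 71.3 CPM with siHNRNPH1, a log2 fold change of -0.94 (SE 0.11, edgeR BH-adjusted p = 0.00939). That call was lost in the fits without siNegative replicate 1, 2 or 3 and without siHNRNPH1 replicate 2, where the edgeR BH-adjusted p was 0.0557 to 0.0873.

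A further 8 genes met the rule for shares with 10 to 19 covering models in 1 pool or both. These genes were named after their values were seen. In RBM10, a splicing regulator, a 177-nt exon (chrX:47179319-47179495) was in 10 of 10 and 6 of 17 models. In CHTOP, an mRNA export factor, a 138-nt exon was in 8 of 21 and 13 of 13. MMS19, of iron-sulfur protein assembly, had the intron chr10:97468407-97468965 in 11 of 12 and 5 of 16 models, and in 12 of 12 and 10 of 16 HT-1080 models. SLC33A1, an acetyl-CoA transporter, retained a 1362-nt intron in 10 of 11 and 3 of 15 models. SPAG9 had the intron chr17:50974948-50977107 in 10 of 13 and 9 of 33 models, but in 7 of 11 and 6 of 10 HT-1080 models, a difference of -3.64 points. The others were CHTF18, AP3M2 and HNRNPH1 itself. Apart from MMS19 and SPAG9, the features of these genes had under 10 covering models in 1 HT-1080 pool or both. Of the 8 genes, which include the siRNA target, 6 (75%) met the short-read rule, against 25.2% of the 603 genes above and 21.5% of all genes. Without replicate 1, 6 met it, against 14.8% and 20.7%, and 5 did both times. At SLC33A1, ENST00000468581.2 held 35.5%, 36.1% and 36.2% with siNegative and 3.87%, 2.19% and 1.21% with siHNRNPH1. At MMS19, ENST00000438925.7 held 50.5%, 54.7% and 51.7% with siNegative and 22.3%, 21.1% and 25.3% with siHNRNPH1.

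Of 25 HNRNPH1 introns covered by at least 10 models in each pool, 1 was shifted. The intron chr5:179618324-179619268 (minus strand) was in 13 of 36 models with siNegative (36.1%, interval 20.8 to 53.8%) and 12 of 13 with siHNRNPH1 (92.3%, interval 64.0 to 99.8%). In HT-1080 it was in 11 of 14 and 2 of 2 models. Its close relatives all had models in both pools. HNRNPH3 had 23 and 53 models, HNRNPF 23 and 40, GRSF1 12 and 29, and HNRNPH2 1 and 2. In short reads HNRNPH2, a close paralog, fell like the target, from 203.2, 207.5 and 203.2 CPM with siNegative to 39.5, 65.5 and 65.4 CPM with siHNRNPH1 (log2 fold change -1.88, SE 0.20, edgeR BH-adjusted p = 0.00875). HNRNPH3 rose, from 305.8, 318.1 and 307.3 CPM to 535.5, 741.5 and 771.0 CPM (log2 fold change 1.11, SE 0.15, edgeR BH-adjusted p = 0.0138). A 506-nt HNRNPH3 intron was in 56.5% of siNegative and 87.2% of siHNRNPH1 models, with intervals that overlapped, and in 61.1% and 92.9% in HT-1080. EIF4G1, a scaffold of translation initiation named in the title of the series, had 66 and 101 models and its largest intron difference was -22.8 points, with intervals that overlapped. In short reads its transcript ENST00000411531.5 held 33.6%, 30.9% and 35.7% with siNegative and 5.57%, 23.9% and 29.0% with siHNRNPH1, which met the rule with replicate 1 and not without it. AURKA, a mitotic kinase also in the title, had 14 and 16 models, too few for the test at 20 covering models, and a largest difference of 25 points with intervals that overlapped. Among lists chosen for the topic, none of the introns of other hnRNPs, SR proteins, translation initiation factors, mitotic kinases or nonsense-mediated decay factors was shifted. Of 24 other hnRNP genes, 15 had an intron covered by at least 10 models in each pool and 3 reached 25 points with overlapping intervals (HNRNPA1, PTBP1 and PTBP2). Among all 1930 loci with such coverage, 267 (13.8%) had an intron at 25 points or more. Of 13 SR protein genes, 7 had such coverage and SRSF4 reached 25 points with overlapping intervals. Of 36 translation initiation genes, 15 had it and EIF4E reached 25 points, again with overlapping intervals. Of 12 mitotic kinases 6 had it, with AURKA alone at 25 points, and of 14 decay factors 5 had it and 0 reached 25 points.

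Models per locus were compared at the 2004 loci with at least 10 models in each pool. The median ratio, siHNRNPH1 over siNegative, was 1.38 (order-statistic 95% interval 1.36 to 1.40), near the 1.47 of the pool totals. More models with siHNRNPH1 were found at 86.4% of these loci. Intervals of medians, here and below, are over the loci of 1 pair of pools and do not measure the spread between pools. The ratio went in part with the short-read log2 fold change of the gene, with a Spearman correlation of 0.39 over 1970 loci. The median ratio was 1.73 at 19 loci whose gene was higher in short reads (edgeR), 1.02 at 80 loci whose gene was lower and 1.39 at 1871 loci not called. These edgeR calls moved with the libraries used, as given above. Among loci with at least 20 models in both pools together, the lowest ratios were at USP37 (15 and 5 models), GOLGA8B (16 and 6), HNRNPH1, KANSL3 (21 and 9) and ANKRD27 (15 and 7). The highest were at NETO2 (1 and 22), TBC1D5 (2 and 26), HAPSTR1 (2 and 19), EXOC4 (3 and 19) and KAT2A (4 and 25). KANSL3, a subunit of a histone acetyltransferase complex, was also lower in short reads, at 120.2, 121.1 and 118.2 CPM against 62.9, 81.7 and 79.4 CPM. NETO2, a membrane protein that modifies kainate receptors, had short-read levels that overlapped, with 98.2, 102.9 and 102.3 CPM against 76.9, 119.8 and 122.8 CPM.

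**Figure D4:**
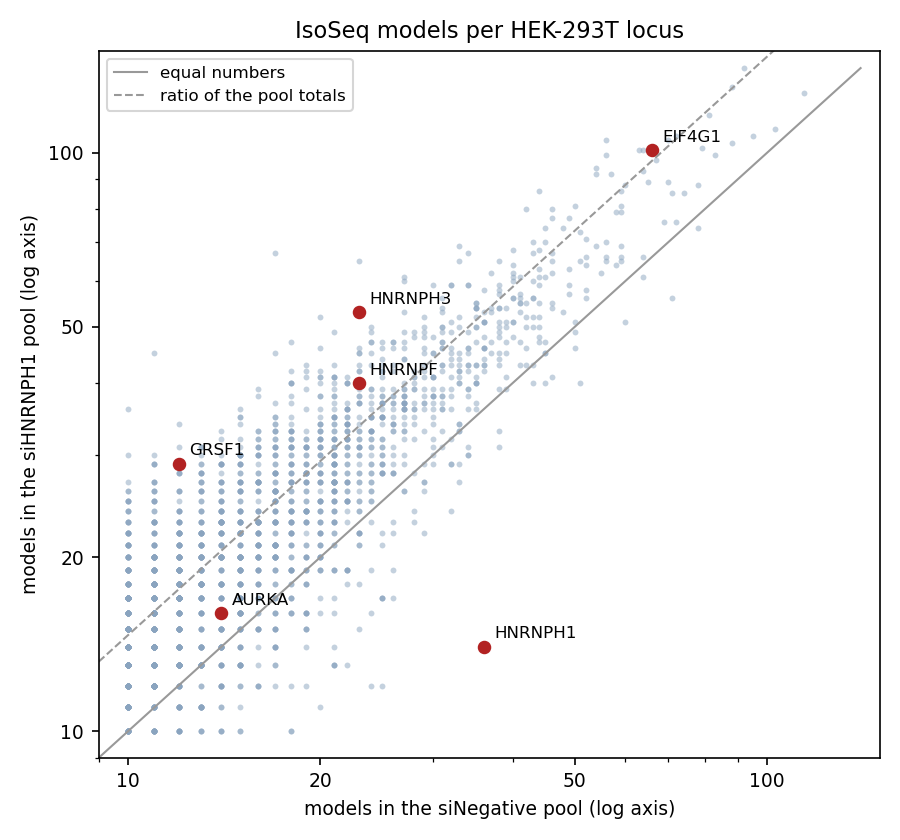
Number of IsoSeq models per HEK-293T locus in the siNegative pool (x axis) and the siHNRNPH1 pool (y axis), both on log axes, for loci with at least 10 models in each pool. The solid line marks equal numbers and the dashed line the ratio of the pool totals, 1.47; HNRNPH1, with 36 and 14 models, lies far below both.

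More distinct structures came with more models. Of the introns in the siNegative pool, 89.3% were also in the siHNRNPH1 pool, and 78.4% of those of the siHNRNPH1 pool were in the siNegative pool. Whole intron chains were shared less, at 63.7% and 43.8%. At equal numbers of models, computed by rarefaction, the median locus had 0.55 more distinct introns with siHNRNPH1 (interval 0.454 to 0.665), with 1207 loci higher and 761 lower. First and last exons were alike in length: the median difference was 0 nt for both. The median shift of the 5′ end and of the 3′ end was 0 nt too, but 5′ ends lay further downstream with siHNRNPH1 at 991 loci (49.5%) and further upstream at 598 (29.8%). In HT-1080 these numbers were 667 and 663. The 3′ ends lay downstream at 494 loci and upstream at 451. Of all loci, 71.3% had 5′ ends and 80.6% had 3′ ends within 50 nt of each other. The part of the 5′ ends in the first exon shares and in the lengths given next was not tested.

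The models with siHNRNPH1 were shorter at most loci. The median difference in exonic length was -54.25 nt over 2004 loci (interval over loci -63.5 to -45.0). Of these, 1325 loci were shorter and 671 longer, and models had 0.25 fewer exons at the median. The difference grew with length: over 4 equal groups of loci, from the shortest to the longest by the mean of both pools, the medians were -14, -36.5, -76 and -126.5 nt. In HT-1080 the direction was opposite, 17.75 nt longer at the median of 1648 loci, with medians of 13, 22.5, 26.5 and 17.25 nt over its 4 length groups. Whether the lines differ in this was not tested. In the HEK-293T short reads, replicate 1 of siHNRNPH1 had lower levels for longer loci, with median log2 ratios to siNegative of -0.20, -0.49, -0.68 and -0.92 over the length groups. The same values lay between -0.01 and 0.11 for replicates 2 and 3. The labels used here do not say which replicates entered the siHNRNPH1 pool, so whether it holds RNA of replicate 1 is unknown, and the part of replicate 1 in the shorter models was not tested.

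**Figure D5:**
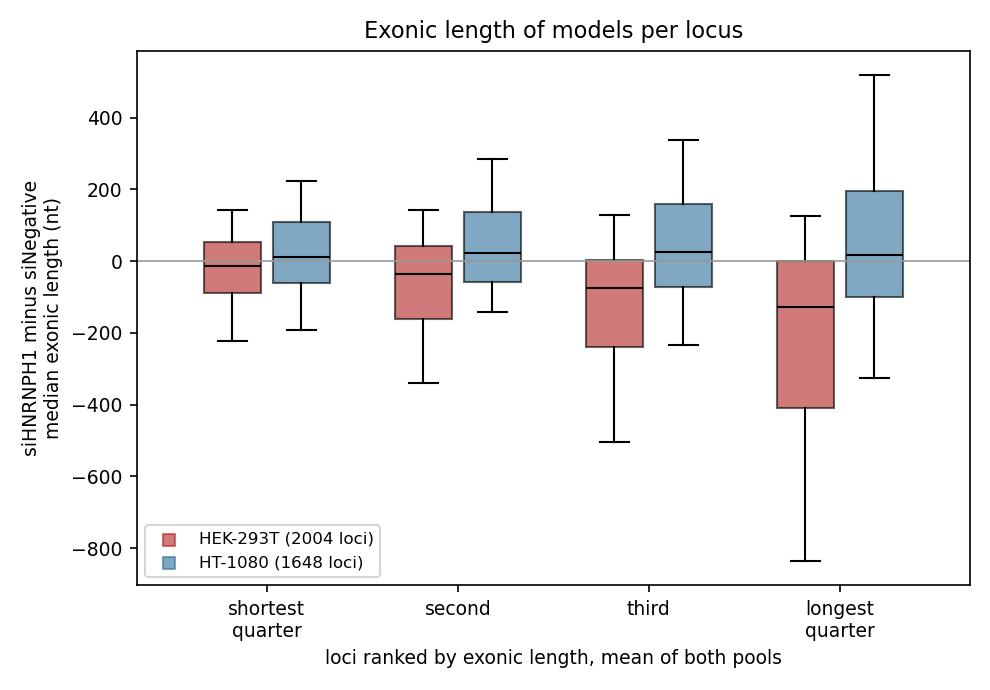
Difference of median exonic length per locus, siHNRNPH1 minus siNegative, in nt (y axis), for 4 groups of loci ranked by exonic length (x axis), in HEK-293T (2004 loci) and HT-1080 (1648 loci). Boxes span the quartiles with the median as a line and whiskers the 10th to 90th percentile; the HEK-293T medians are all below 0, down to -126.5 nt, and the HT-1080 medians all above.

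The loci with the largest length differences, at 20 models or more per pool, are named next. PCM1, a centrosome satellite protein, had a median of 6204 nt with siNegative and 4184 nt with siHNRNPH1, with 30.5 and 25.2 exons per model. LATS1, a kinase of the Hippo pathway, had 4338 and 2691.5 nt, with a median last exon of 2878 and 541 nt. SSX2IP, a centrosome protein, had 4485.5 and 2973 nt, with a last exon of 2648.5 and 1117 nt. CLASP2, a microtubule-binding protein, differed by -1625 nt and had 25.2 and 19.3 exons per model. TUT4, an RNA uridylyltransferase, differed by -1420 nt. Among the largest increases were EXOC7 of the exocyst, by 1009.5 nt, NAMPT of NAD synthesis, by 677 nt, EIF4G1, by 542 nt, and RAI14, by 492.5 nt. EIF4G1 models had medians of 4149 and 4691 nt with 24.6 and 25.3 exons per model. Its median last exon was 625 nt in both pools.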

How the data were processed

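Full-length cDNA models (IsoSeq) were examined for 2 HEK-293T and 2 HT-1080 pools, and short reads for 6 HEK-293T libraries of 107.7 to 121 M counts. The authors deposited collapsed, filtered models as exon positions without read counts, with replicates pooled per the labels. The authors also deposited expected counts per transcript, from RSEM per the submitters' processing notes, on GRCh38.p13. Other tools and versions are not given in the sources used here. These were added up over the transcripts of a gene, then rounded. Locus names came from RefSeq GRCh38.p14 gene spans, used for names only, and 99.0% of loci had one.

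A feature was tested with 20 or more covering models in each pool. Exact intervals used scipy 1.17.1 and pandas 2.3.3. Gene level used edgeR 4.0.16 in R 4.3.3 with TMM scaling and Benjamini-Hochberg adjustment at 0.05, and DESeq2 1.42.0 as an alternative. Scripts were tested on simulated data. The named features were up to 8 per direction and kind, 1 per locus, for ends and lengths up to 5. The members and lists were chosen with earlier results of these data known. Alternatives were other thresholds, distinct intron chains, other scaling, and each short-read library left out. Nothing in the labels ties the replicates to separate cultures beyond calling them biological replicates, and p-values measure the spread between them. A marker gene and a locus picked by the naming rule are not reported here.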

Additional observations from a re-analysis of the deposited data

Results flagged for a closer look

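At 3 features the HEK-293T and HT-1080 pools differed in opposite directions, which no test compared. The 69-nt DEK exon had a difference of -28.4 points in HEK-293T and 8.70 points in HT-1080. The 443-nt DEK intron next to it had -28.5 and 8.33 points. The SUGP2 first exon that ends at base 19033437 had -37.8 and 1.92 points. In HT-1080 the intervals of the 2 pools overlapped at all 3 features. The counts there were 21 of 23 and 13 of 13 models for the DEK exon, 22 of 24 and 13 of 13 for the DEK intron, and 15 of 20 and 10 of 13 for SUGP2.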

How the results depend on the processing

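The shifted features were few and moved with the thresholds. With at least 40 covering models in each pool, 2 introns were higher, 0 lower, 1 internal exon higher, 1 lower, 0 retained introns lower, and 0 first and 1 last exon loci shifted. With a difference of at least 40 points the numbers were 6, 3, 2, 3, 0, 0 and 1 in that order. Without the condition on intervals they were 34, 39, 17, 30, 3, 17 and 9, with 6 retained introns higher. With distinct intron chains in place of models they were 6 and 3 introns, 2 and 2 exons, and 0 first and 0 last exon loci. At least 10 covering models gave 7 exons higher, 1 retained intron higher, 2 lower and 5 first exon loci, and a difference of at least 15 points gave 2 retained introns higher. Of 36 features, 14 kept their call with distinct chains, 21 did not, 13 of which had under 20 chains, and the SPART intron from base 36336359 reversed to -2.02 points. The median length difference was -42.75 nt with at least 5 models per pool and -66.5 nt with at least 20, and the median ratio of models was 1.35 with at least 20 and 1.32 with chains.

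In short reads, 4801 genes had a shifted transcript share at 5 points and 770 at 20. Without siHNRNPH1 replicate 1, an alternative chosen after seeing the data, 6 of the 19 shifted genes had one, not 11. The edgeR count of 1997 genes was 1302 with no filter on low counts and 3461 with DESeq2. It was 0 to 12557 with 1 library left out: 12557 without siHNRNPH1 replicate 1, 245 and 639 without replicates 2 and 3, and 20, 0 and 0 without siNegative replicates 1, 2 and 3. For the fits with 0, edgeR had 3517 and 3486 genes at an unadjusted p under 0.05. With the replicate number as a block edgeR called 0 genes, with 4169 at an unadjusted p under 0.05. The main fit did not take the numbers as pairs. Deviations of same-numbered libraries from their group means had correlations of 0.124, 0.119 and 0.0347. As siHNRNPH1 replicate 1 stood apart and weighs on these deviations, the correlations cannot show whether the numbers are pairs. Gene log2 fold changes with 1 library left out reversed at SPART (-0.22 to 0.092) and TOP3B (-0.18 to 0.21), both without siHNRNPH1 replicate 1, and at CTNNB1 (-0.028 to 0.097) without siHNRNPH1 replicate 2 or 3. The cause of these differences was not tested. Models without read counts limit each share to the number of covering models.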
